A study of Mus musculus with 12 samples.

Results

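Genes of glycolysis and of the response to low oxygen were described in mouse embryonic fibroblasts (MEFs) treated with metabolites or an inhibitor of the methyl cycle. The members are 35 genes listed by symbol, from glucose uptake to lactate export, with the hypoxia-inducible factor (HIF) system and some of its best known targets, and they were matched to the expression table by Ensembl identifier. The table lists 12591 genes, and 31 of the 35 members are among them. Slc2a3, Aldoc, Epas1 and Ankrd37 are not rows of the table, which per the authors' methods holds genes that reach 1 CPM in each sample, and no level is given for them here. The cells came from heterozygous PER2::LUC mice of a C57 background, which make the clock protein PER2 as a luciferase fusion, and the study describes them as immortalized. Confluent dishes received 1 mM S-adenosylmethionine (SAM), 1 mM adenine or 10 µM deazaneplanocin A (DZ), an inhibitor of the enzyme AHCY that clears S-adenosylhomocysteine, and RNA was taken after 24 h. Control dishes (CTL) received none of these compounds, and all 4 groups contained 3.3 mM HCl, the solvent of adenine. Each group has 3 dishes, which the labels do not describe as independent cultures, so the p-values measure the spread between dishes, which may be technical.

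Glycolysis splits glucose into pyruvate in the cytosol. The pyruvate is either reduced to lactate and exported or enters the mitochondrion, where pyruvate dehydrogenase kinases hold back its oxidation. The transcription factor HIF-1, made of an oxygen-regulated alpha subunit and a stable partner, switches on most genes of this route together with genes of blood vessel growth and mitophagy. When oxygen is present, the prolyl hydroxylases encoded by Egln1 and Egln3 mark the alpha subunit for destruction, and Egln3 is itself a target of HIF-1.

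The level of a gene is given in CPM, read counts scaled to the authors' normalized library size, taken back from the deposited log2 values, and differences are given as log2 differences ± SE. Between 45649534 and 56789090 reads per library fell on the listed genes. limma was run on these log2 values with the 12 libraries in 1 model, and a gene was called at a Benjamini-Hochberg FDR under 0.01 over all 12591 genes. Of 12 fibroblast markers 9 are in the table (Dcn, Lum and Fap are not), and their summed level was 22752 to 23239 CPM in CTL, 28688 to 29388 in DZ, 25785 to 28252 in adenine and 16800 to 18329 in SAM. Of these 9, 8 were called higher and 1 lower in DZ, 6 higher and 1 lower in adenine, and 7 higher and 1 lower in SAM. The shares called were 100%, 77.8% and 88.9%, beside 45.9%, 61.6% and 69.3% of all genes (22.6%, 30.6% and 33.7% higher). In SAM the median log2 difference of the 9 was 0.39 (Pdgfra 2.55, Col3a1 1.31), and the abundant Fn1 was the lower one (-1.58). No endothelial or epithelial marker of 6 each is in the table. The single leukocyte marker of 8, Cd68, was at 3.03 to 3.9997 CPM in CTL, 2.73 to 3.78 in DZ, 10.8 to 12.3 in adenine and 15.6 to 17.7 in SAM. Of 6 skeletal muscle markers only Acta1 is a row (1.48 to 1.65 CPM in CTL, 4.29 to 4.91 in SAM, 1.34 to 3.44 in DZ and adenine), and of 5 adipocyte markers only Fabp4 (1.84 to 2.30 CPM in CTL, 3.71 to 4.61 in DZ, 2.70 to 3.87 in adenine, 5.15 to 5.94 in SAM). The part of these shifts in the results that follow was not tested. In bulk RNA such as this, fewer cells of a kind and less RNA per cell cannot be told apart.

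In CTL the members spanned a wide range of levels. Per kilobase of the longest annotated transcript and counting each gene's own row alone, Tpi1 (triosephosphate isomerase) was highest with 243 ± 3.36 CPM (SD, n = 3), followed by Pgk1 (phosphoglycerate kinase, 214 ± 2.46), Pkm (pyruvate kinase, 193 ± 2.48) and Aldoa (aldolase, 183 ± 2.55). Neighbours in this top group differed by more than their SDs. Ndrg1, a stress response gene induced by hypoxia, came next with 139 ± 2.29, above most glycolytic enzymes, and Vegfa, the main growth factor for blood vessels, reached 107 ± 2.94. Its SD range overlapped those of its neighbours Pgam1 (phosphoglycerate mutase, 114 ± 4.20) and Ldha (lactate dehydrogenase A, 104 ± 1.15). The lowest were Pfkfb4 (1.26 ± 0.0867) and the lactate exporter gene Slc16a3 (0.232 ± 0.0327). With the median length of the coding transcripts in place of the longest transcript, Pkm came first with 521 CPM per kilobase and Hk1 moved from place 11 to place 7, so the order among the abundant enzymes depends on the length used. It also depends on reads held by near-identical copies of a gene, described next: with these added, Pgk1 led by the longest transcript (343 ± 3.50, before Tpi1 at 243) and Gapdh by the median transcript (562, before Pkm at 547).

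**Figure D1:**
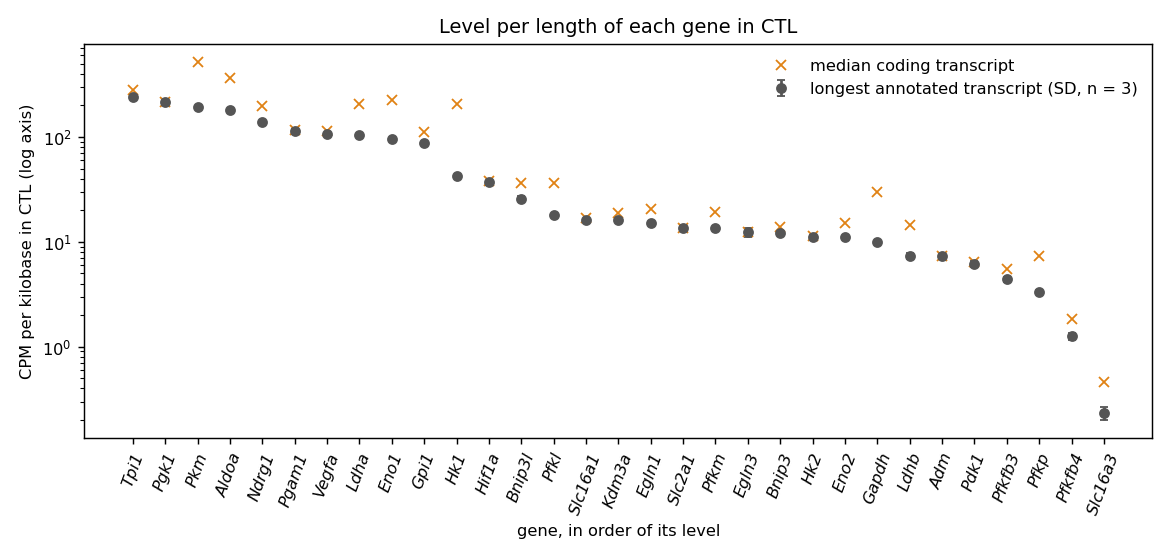
Level of each of the 31 genes in CTL in CPM per kilobase, on a log axis, from the longest annotated transcript (circles with SD, n = 3) and from the median coding transcript (crosses). Each gene's own row is plotted: Tpi1 leads at 243 by the first length and Pkm at 521 by the second (with near-identical copies added, Pgk1 at 343 and Gapdh at 562), while Pfkfb4 and Slc16a3 are lowest by both.

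Gapdh, glyceraldehyde-3-phosphate dehydrogenase and the usual reference gene for fibroblast RNA, had only 39.6 CPM in its own row in CTL. The table also holds 40 loci whose transcripts match Gapdh over at least 500 bases at 95% identity or more, 38 of them annotated as pseudogenes. Gapdh and these loci together had 749 ± 15.0 CPM in CTL (SD, n = 3), so the row named Gapdh carries 5.28% of the reads. Reads of such loci could not be told apart from those of the parent gene here. Among the other members, the own row held 62.4% of the sum for Pgk1, whose 2 copies Pgk1-rs7 and Gm5537 match it at 100% identity, 76.8% for Eno1, 77.0% for Pgam1, 86.0% for Bnip3l, and over 95% for Pkm, Bnip3 and Gpi1. The other 23 members have no such copy in the table. Summing the copies turned Gapdh, which its own row calls lower only in adenine, into a gene called lower in each treatment, with log2 differences of -0.19 ± 0.0449 in DZ (adjusted p = 0.00181), -0.34 ± 0.0449 in adenine (adjusted p = 6.92e-06) and -0.32 ± 0.0449 in SAM (adjusted p = 1.07e-05). The summed level lay below CTL on plain read totals too, with log2 differences of -0.17, -0.27 and -0.19, and the summing changed no call of another member in the 3 comparisons with CTL. Summing was chosen after the values were seen.

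**Figure D2:**
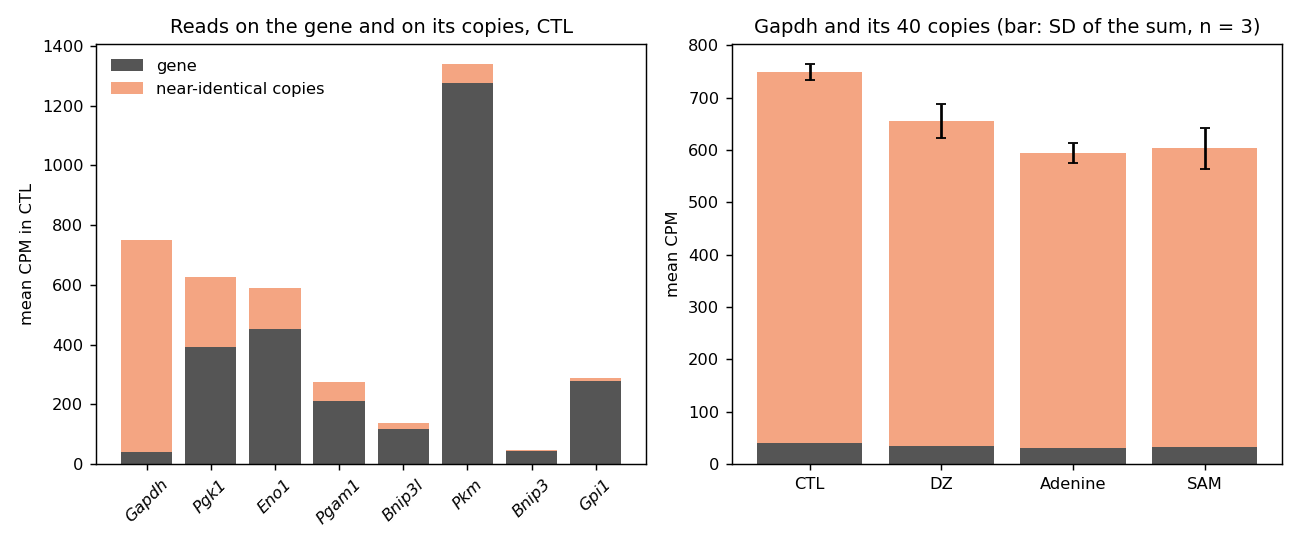
Left, mean CPM in CTL of the 8 members that have near-identical copies, with the gene's own reads in grey and those of its copies in orange. Right, the same for Gapdh in each group with the SD of the sum (n = 3), where the sum falls from 749 in CTL to 655 in DZ, 594 in adenine and 603 in SAM.

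The members moved in both directions in each treatment, and in each the called falls outnumbered the called rises. In DZ 21 of the 31 members were called, 8 higher and 13 lower, where 45.9% of all genes tested were called (22.6% higher, 23.4% lower). In adenine 22 were called, 8 higher and 14 lower, beside 61.6% of all genes (30.6% higher, 31% lower). In SAM 24 were called, 6 higher and 18 lower, beside 69.3% of all genes (33.7% higher, 35.7% lower). The median log2 difference of the members was -0.07 in DZ, -0.07 in adenine and -0.25 in SAM, while that of all genes was -0.0057, -0.0030 and -0.015. In size, 4 members in DZ, 8 in adenine and 13 in SAM were called with a log2 difference of at least 0.5, beside 12.2%, 26.9% and 35.1% of all genes. On plain read totals, which moved the median of all genes in SAM to 0.11, 11 of 26 called members were higher in SAM (42.3%) against 6 of 24 (25.0%) on the authors' scaling, and among all called genes 61.2% against 48.5%. Quantile normalization gave 10 of 28 (35.7%). The members' medians on plain read totals were -0.04 in DZ, -0.01 in adenine and -0.13 in SAM, and that in adenine was -0.04 with quantile normalization and -0.12 with median centring. Without CTL replicate 1 the count in DZ fell to 16, and the median in DZ was -0.10 without DZ replicate 2.

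**Figure D3:**
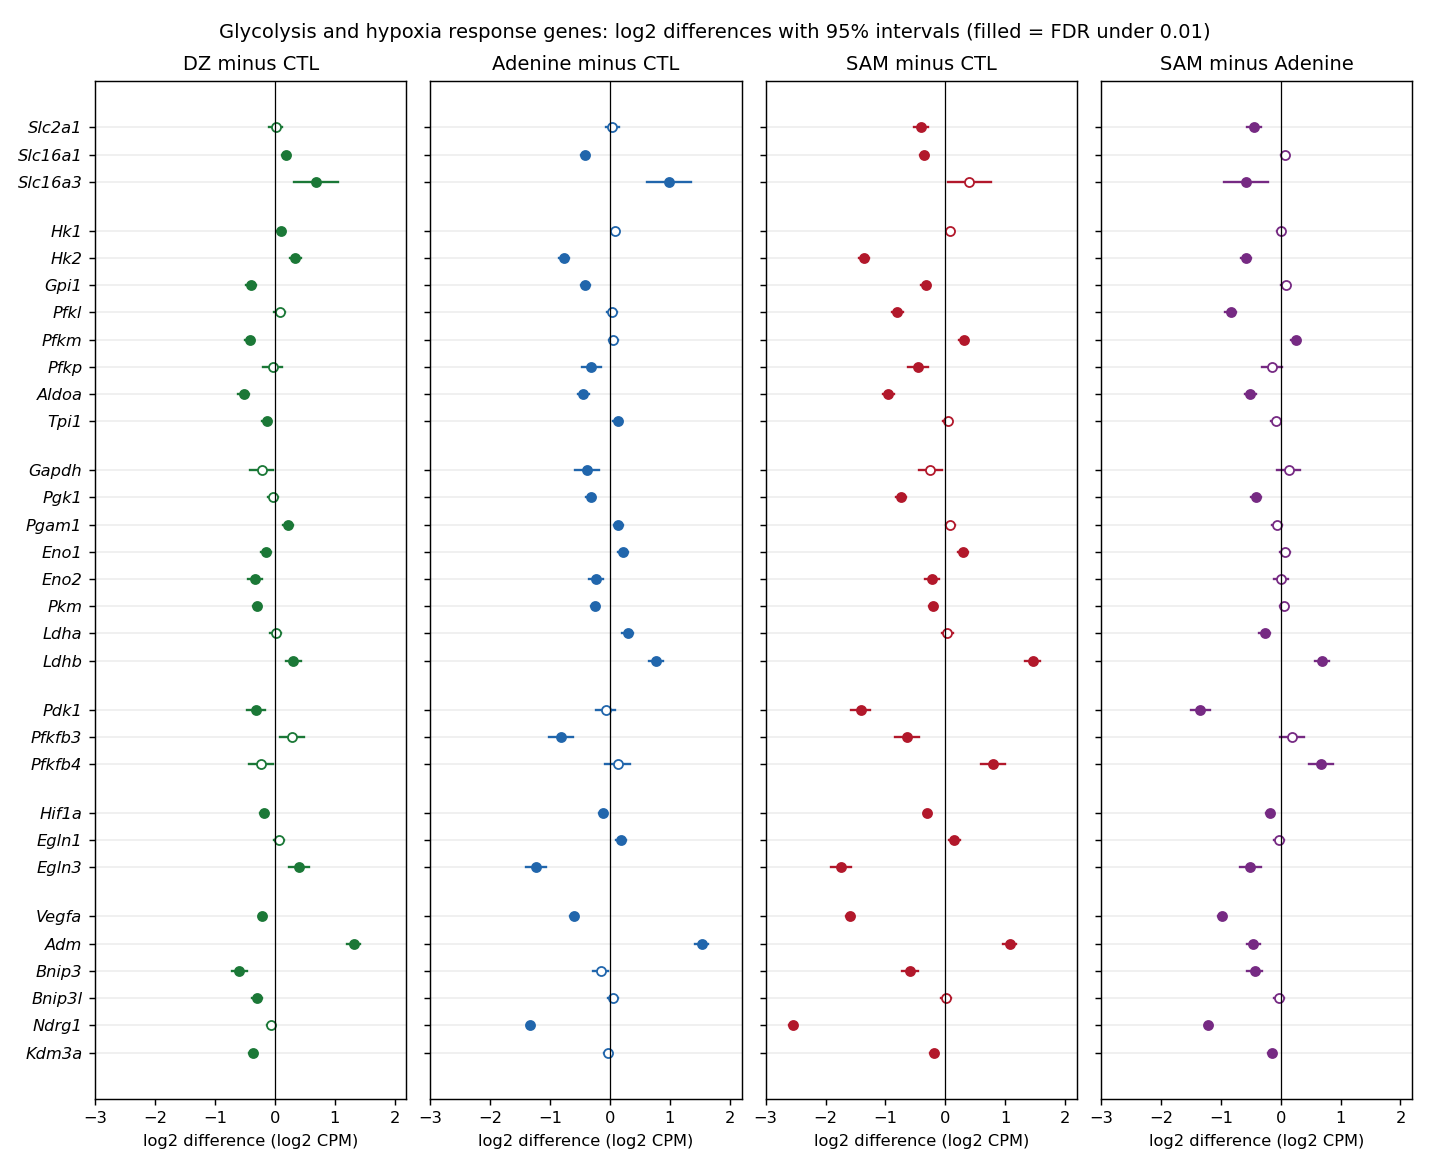
Log2 difference of each of the 31 members with its 95% interval in DZ, adenine and SAM against CTL, and in SAM against adenine, in order of role. Filled points passed an FDR of 0.01 in limma. Adm lies to the right of 0 in the 3 comparisons with CTL, Ndrg1 reaches -2.55 in SAM, and 15 of the 18 filled points of SAM against adenine lie to the left of 0.

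The uptake and export genes differed between treatments. Slc2a1, the glucose transporter GLUT1, was at 60.9, 57.2 and 64.1 CPM in CTL, 58.5, 63.0 and 62.9 in DZ, 65.3, 62.8 and 59.2 in adenine, and 43.5, 47.6 and 46.6 in SAM. The SAM libraries lay below all others, and Slc2a1 fell in SAM (log2 difference -0.40 ± 0.0519, adjusted p = 3.42e-06), while DZ and adenine overlapped CTL, with 0.02 (adjusted p = 0.793) and 0.04 (adjusted p = 0.511). Slc16a1, the lactate carrier MCT1, rose in DZ (0.18 ± 0.0317, adjusted p = 1.78e-04) and fell in adenine (-0.42 ± 0.0317, adjusted p = 8.56e-09) and in SAM (-0.35 ± 0.0317, adjusted p = 5.41e-08). Slc16a3, the lactate carrier MCT4, was at 1.94, 2.05 and 2.51 CPM in CTL, 3.32, 3.77 and 3.32 in DZ, 4.84, 5.08 and 3.15 in adenine, and 3.30, 2.52 and 2.78 in SAM. All treated libraries were above CTL, with a wide spread in adenine. Slc16a3 rose in DZ (0.69 ± 0.172, adjusted p = 0.00316) and in adenine (0.98 ± 0.172, adjusted p = 1.02e-04), and in SAM the difference was 0.40 (adjusted p = 0.044). It rests on 84 to 280 reads per library and overlaps 2 genes on the opposite strand, Csnk1d (157 CPM in CTL) and Ccdc57 (6.39 CPM). Csnk1d had log2 differences of 0.14 in DZ, -0.06 in adenine and 0.02 in SAM. Ccdc57 had -0.65 in DZ, -1.0003 in adenine and -0.41 in SAM. The library kit keeps the strand, but whether the counting used it is not given in the sources used here, so reads of these genes cannot be told apart. The DZ call was lost without CTL replicate 1, CTL replicate 2 or DZ replicate 2 (adjusted p = 0.0130 to 0.0161).

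Of the enzymes from hexokinase to triosephosphate isomerase, 6 of 8 were called in DZ (2 higher, 4 lower), 5 in adenine (1 higher, 4 lower) and 6 in SAM (1 higher, 5 lower), or 75.0%, 62.5% and 75.0%, beside 45.9%, 61.6% and 69.3% of all genes. The hexokinases that trap glucose in the cell parted. Hk2, the inducible form, was at 89.0, 89.0 and 82.6 CPM in CTL, 108, 109 and 113 in DZ, 48.9, 52.5 and 51.4 in adenine, and 34.9, 33.6 and 33.4 in SAM. The 4 groups did not overlap, with DZ highest, then CTL, adenine and SAM. Hk2 rose in DZ (0.35 ± 0.0400, adjusted p = 3.29e-06), or 1.27 times the CTL level, and fell in adenine (-0.77 ± 0.0400, adjusted p = 1.06e-10) to 0.586 times and in SAM (-1.35 ± 0.0400, adjusted p = 9.93e-14) to 0.392 times. Hk1, the form most cells always make, differed by 0.11 (DZ), 0.09 (adenine) and 0.09 (SAM), with a call in DZ alone (adjusted p = 0.00569) that was lost when any 1 of the 6 libraries was left out (adjusted p = 0.0101 to 0.0287).

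The 3 genes of phosphofructokinase, the committed step, also parted in SAM. Pfkl, the liver-type subunit, was at 157, 147 and 148 CPM in CTL, 153, 162 and 163 in DZ, 159.7, 159.7 and 143 in adenine, and 85.3, 86.2 and 87.4 in SAM. CTL, DZ and adenine overlapped and SAM lay below them. Pfkl fell in SAM (-0.80 ± 0.0421, adjusted p = 7.87e-11), to 0.573 times the CTL level, and differed by 0.08 (adjusted p = 0.11) in DZ and 0.03 (adjusted p = 0.503) in adenine. Pfkm, the muscle-type subunit, fell in DZ (-0.42 ± 0.0353, adjusted p = 1.21e-07) and rose in SAM (0.30 ± 0.0353, adjusted p = 1.06e-06), and Pfkp, the platelet-type subunit, fell in adenine (-0.31 ± 0.0763, adjusted p = 0.00185) and in SAM (-0.46 ± 0.0763, adjusted p = 5.23e-05). All 3 overlap another gene of the table on the opposite strand: Pfkl Cfap410 (15.9 CPM in CTL), Pfkm Senp1 (78.8 CPM) and Pfkp Pitrm1 (151 CPM). Log2 differences in DZ, adenine and SAM were -0.21, -0.17 and 0.31 for Cfap410, -0.19, 0.58 and 0.42 for Senp1, and 0.23, 0.09 and 0.13 for Pitrm1. Tpi1 overlaps Spsb2 (15.5 CPM in CTL) over only 38 bases, and Gapdh overlaps Iffo1 (26.2 CPM) over 5403. Pkm shares its strand with Gm49759 (52.9 CPM) over 3887 bases. Gm49759 had log2 differences of -0.49 in DZ, 0.15 in adenine and 0.42 in SAM. As with Slc16a3, reads of such overlapping genes cannot be told apart here.

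Gpi1 and Aldoa fell in all treatments. Gpi1, glucose-6-phosphate isomerase, had log2 differences of -0.39 in DZ, -0.41 in adenine and -0.33 in SAM, with the adjusted p at 7.84e-07 or less. Aldoa was at 529, 523 and 538 CPM in CTL, 353, 375 and 383 in DZ, 393, 411 and 362 in adenine, and 266, 271 and 284 in SAM. No treated library reached CTL, and SAM was below the others. Aldoa fell in DZ (-0.52 ± 0.0431, adjusted p = 1.07e-07), in adenine (-0.45 ± 0.0431, adjusted p = 1.63e-07) and in SAM (-0.95 ± 0.0431, adjusted p = 1.29e-11), where 0.516 times the CTL level remained. Tpi1, which follows aldolase, differed by -0.13, 0.13 and 0.04, the first 2 called, and each of these calls was lost when some single libraries were left out (adjusted p = 0.0118 to 0.0281). Under other scalings the DZ call was lost with quantile normalization (-0.08, adjusted p = 0.0377) and on plain read totals (-0.11, adjusted p = 0.0135) and the adenine call with median centring (0.08, adjusted p = 0.0519).

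From Gapdh to lactate dehydrogenase, 5 of 8 were called in DZ (2 higher, 3 lower), 8 in adenine (4 higher, 4 lower) and 5 in SAM (2 higher, 3 lower), or 62.5%, 100% and 62.5%, beside 45.9%, 61.6% and 69.3% of all genes. The largest change was a rise of Ldhb, the lactate dehydrogenase subunit of oxidative tissues. Ldhb was at 20.5, 19.9 and 17.9 CPM in CTL, 24.3, 24.5 and 23.5 in DZ, 32.8, 31.6 and 34.5 in adenine, and 51.8, 51.7 and 56.4 in SAM. The groups did not overlap and stood in the order CTL, DZ, adenine and SAM. It rose in DZ (0.31 ± 0.0565, adjusted p = 2.40e-04), adenine (0.76 ± 0.0565, adjusted p = 7.56e-09) and SAM (1.46 ± 0.0565, adjusted p = 2.19e-12), where it reached 2.74 times the CTL level. Ldha, the subunit of fast glycolysis, rose in adenine (0.30 ± 0.0423, adjusted p = 1.27e-05) and differed by 0.02 (adjusted p = 0.77) in DZ and 0.03 (adjusted p = 0.524) in SAM. In CTL the Ldha row had 329 CPM and the Ldhb row 19.4.

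Pgk1, the first enzyme of the pathway that yields ATP, was at 388, 396 and 388 CPM in CTL, 371, 385 and 390.1 in DZ, 319, 325 and 292 in adenine, and 227, 231 and 242 in SAM. DZ overlapped CTL, adenine lay below both and SAM below adenine. Pgk1 fell in adenine (-0.33 ± 0.0382, adjusted p = 1.62e-06) and in SAM (-0.74 ± 0.0382, adjusted p = 6.26e-11), and its pseudogene rows differed alike, by -0.72 for Pgk1-rs7 and -0.73 for Gm5537 in SAM. Eno1, the ubiquitous enolase, fell in DZ (-0.14 ± 0.0382, adjusted p = 0.005) and rose in adenine (0.22 ± 0.0382, adjusted p = 1.03e-04) and in SAM (0.29 ± 0.0382, adjusted p = 4.17e-06). Eno2, the neuronal enolase, fell in each treatment, with -0.32, -0.24 and -0.23 (adjusted p of at most 0.00149), and on plain read totals the calls in adenine (-0.18, adjusted p = 0.0117) and SAM (-0.11, adjusted p = 0.0978) were lost. Pkm was called lower in each treatment, with -0.29 in DZ, -0.25 in adenine and -0.20 in SAM (adjusted p of at most 2.01e-05). Under quantile normalization its difference in SAM turned to 0.06 (adjusted p = 0.125) and the call in adenine was lost (-0.04, adjusted p = 0.237), and on plain read totals that in SAM was lost (-0.08, adjusted p = 0.0282). Pgam1 rose in DZ (0.22 ± 0.0384, adjusted p = 1.64e-04) and in adenine (0.14 ± 0.0384, adjusted p = 0.0042). The DZ call of Eno1 and the adenine call of Pgam1 were lost without some single libraries (adjusted p = 0.0133 to 0.0277 and 0.0173 to 0.0249), the first also under quantile normalization (-0.08, adjusted p = 0.0929) and on plain read totals (-0.12, adjusted p = 0.0166), and the second under median centring (0.09, adjusted p = 0.049).

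Of the 3 regulators of flux, 1 was called lower in DZ, 1 lower in adenine, and all 3 in SAM (1 higher, 2 lower). These are 33.3%, 33.3% and 100%, beside 45.9%, 61.6% and 69.3% of all genes. Pdk1, the kinase that shuts pyruvate dehydrogenase, was at 34.9, 33.1 and 31.0 CPM in CTL, 24.3, 29.3 and 26.2 in DZ, 30.2, 33.5 and 30.5 in adenine, and 12.9, 12.7 and 11.5 in SAM. SAM lay far below the others, DZ was below CTL, and adenine overlapped CTL. Pdk1 fell in SAM (-1.41 ± 0.0733, adjusted p = 6.85e-11), to 0.375 times the CTL level, and in DZ (-0.31 ± 0.0733, adjusted p = 0.00188), a call lost without CTL replicate 1 or DZ replicate 1 (adjusted p = 0.0120 and 0.0121). In adenine it differed by -0.07 (adjusted p = 0.389), with a 95% interval of -0.23 to 0.08.

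Pfkfb3 and Pfkfb4 make fructose 2,6-bisphosphate, the strongest activator of phosphofructokinase. Pfkfb3 was at 25.8, 25.6 and 23.2 CPM in CTL, 31.1, 30.2 and 29.8 in DZ, 15.7, 15.0 and 11.7 in adenine, and 17.0, 16.7 and 14.4 in SAM. The DZ libraries were above CTL, and those of adenine and SAM below it. Pfkfb3 fell in adenine (-0.83 ± 0.0941, adjusted p = 1.18e-06) and in SAM (-0.64 ± 0.0941, adjusted p = 1.57e-05), while DZ had 0.29 (adjusted p = 0.0158). Pfkfb4 was at 6.40, 6.61 and 5.78 CPM in CTL, 4.56, 5.77 and 5.75 in DZ, 6.77, 6.68 and 7.03 in adenine, and 11.03, 10.4 and 11.2 in SAM. The SAM libraries stood far above the rest, with DZ just under and adenine just over CTL. Pfkfb4 rose in SAM (0.80 ± 0.0963, adjusted p = 1.75e-06), or 1.74 times the CTL level, against -0.23 (adjusted p = 0.0527) in DZ and 0.13 (adjusted p = 0.254) in adenine.

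Hif1a, the oxygen-regulated subunit of HIF-1, fell slightly at the RNA level, which does not measure its protein. It fell in DZ (-0.18 ± 0.0281, adjusted p = 6.53e-05), adenine (-0.12 ± 0.0281, adjusted p = 0.00151) and SAM (-0.30 ± 0.0281, adjusted p = 8.69e-08), and the adenine call was lost on plain read totals (-0.06, adjusted p = 0.0809) and under quantile normalization (-0.07, adjusted p = 0.0305). Egln1, the main oxygen sensor among the prolyl hydroxylases, rose in adenine (0.18 ± 0.0398, adjusted p = 6.83e-04) and in SAM (0.15 ± 0.0398, adjusted p = 0.00267), the latter lost without CTL replicate 2 or SAM replicate 3 (adjusted p = 0.0135 and 0.0113). Egln3 was at 29.8, 33.8 and 36.0 CPM in CTL, 48.1, 40.6 and 43.2 in DZ, 13.7, 14.7 and 13.9 in adenine, and 10.8, 9.86 and 9.25 in SAM. DZ lay above CTL, and adenine and SAM far below it. Egln3 rose in DZ (0.41 ± 0.0790, adjusted p = 4.65e-04), or 1.32 times the CTL level, and fell in adenine (-1.23 ± 0.0790, adjusted p = 1.34e-09) to 0.426 times and in SAM (-1.74 ± 0.0790, adjusted p = 1.43e-11) to 0.300 times.

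Of the 6 hypoxia response targets in the table, 5 were called in DZ (1 higher, 4 lower), 3 in adenine (1 higher, 2 lower) and 5 in SAM (1 higher, 4 lower), or 83.3%, 50% and 83.3%, beside 45.9%, 61.6% and 69.3% of all genes. Ndrg1 (chr15:66801166-66841835, minus strand, GRCm39) showed the largest difference of all members. It was at 554, 569.9 and 570.5 CPM in CTL, 538, 531 and 546 in DZ, 218, 225 and 227 in adenine, and 97.3, 96.8 and 95.6 in SAM. The DZ libraries lay just below CTL, adenine far below both and SAM lowest of all, with no overlap. Ndrg1 fell in adenine (-1.34 ± 0.0260, adjusted p = 9.17e-15) and in SAM (-2.55 ± 0.0260, adjusted p = 1.46e-18), to 0.395 and 0.171 times the CTL level, and in DZ differed by -0.07 (adjusted p = 0.0348). In SAM the size of its difference ranked 98 among the 12591 genes. Vegfa was at 387, 382 and 367 CPM in CTL, 323, 330.3 and 331 in DZ, 242, 251 and 251 in adenine, and 125, 129 and 123 in SAM. No library of one group reached another, and the order was CTL, DZ, adenine and SAM. Vegfa fell in DZ (-0.21 ± 0.0291, adjusted p = 2.40e-05), adenine (-0.61 ± 0.0291, adjusted p = 3.97e-11) and SAM (-1.59 ± 0.0291, adjusted p = 5.43e-16), where 0.331 times the CTL level was left.

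Adm, which encodes the vasodilator peptide adrenomedullin, went the other way. It was at 10.0, 10.4 and 10.2 CPM in CTL, 26.0, 23.8 and 26.2 in DZ, 28.8, 30.3 and 28.9 in adenine, and 20.9, 22.3 and 20.97 in SAM. Each treated library was above each CTL library, with adenine highest. Adm rose in DZ (1.32 ± 0.0540, adjusted p = 5.87e-11), adenine (1.53 ± 0.0540, adjusted p = 1.47e-12) and SAM (1.07 ± 0.0540, adjusted p = 4.85e-11), or 2.49, 2.88 and 2.10 times the CTL level. It was the only target of the 6 to rise in any treatment. Bnip3, a receptor for mitophagy, was at 45.8, 46.2 and 45.5 CPM in CTL, 29.8, 30.2 and 31.5 in DZ, 42.4, 44.2 and 37.0 in adenine, and 29.4, 29.5 and 32.5 in SAM. DZ and SAM libraries were below those of adenine, which lay below CTL. Bnip3 fell in DZ (-0.59 ± 0.0595, adjusted p = 8.24e-07) and in SAM (-0.59 ± 0.0595, adjusted p = 2.16e-07), and in adenine the difference was -0.16 (adjusted p = 0.0266). Its relative Bnip3l fell in DZ (-0.29 ± 0.0397, adjusted p = 1.62e-05), with 0.04 in adenine and 0.01 in SAM. Kdm3a, a histone H3 lysine demethylase, fell in DZ (-0.36 ± 0.0292, adjusted p = 8.01e-08) and in SAM (-0.19 ± 0.0292, adjusted p = 2.31e-05), the latter not called on plain read totals (-0.07, adjusted p = 0.0406).

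**Figure D4:**
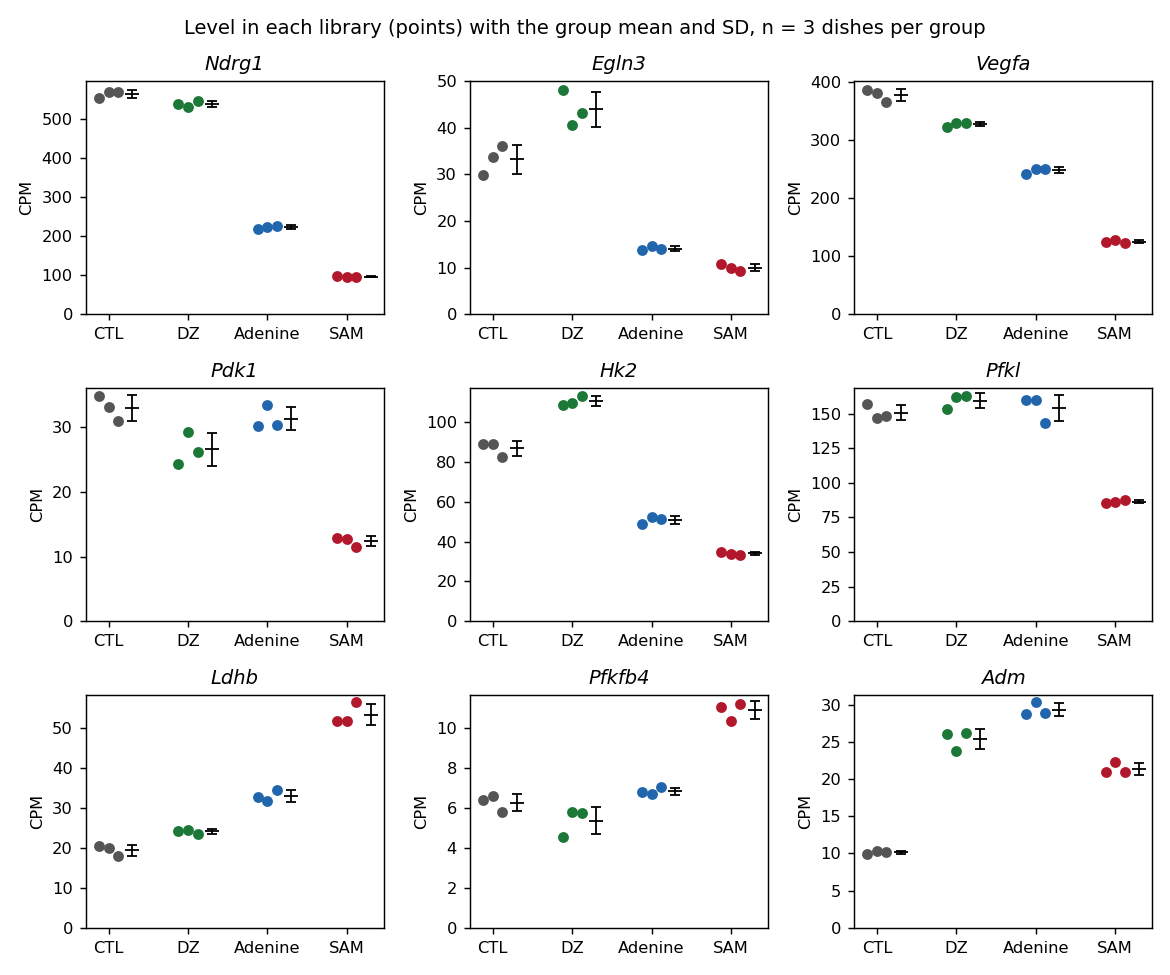
CPM in each library (points) for 9 members, with the group mean and SD (n = 3), on axes that start at 0. Ndrg1, Egln3, Vegfa, Hk2 and Pdk1 are lowest in SAM, Ldhb climbs from 17.9 to 20.5 CPM in CTL to 51.7 to 56.4 in SAM, and Adm is above CTL in all treatments.

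HIF-1 binds a short DNA core, ACGTG or GCGTG, which reads CACGT or CACGC on the other strand. The promoter windows of 4 members that fell in SAM (Egln3, Vegfa, Pdk1, Hk2) and of 2 that rose (Adm, Ldhb) are shown so that this core can be read beside the changes. Each runs from 250 bases before to 50 bases after the RefSeq transcription start on GRCm38.p6, 5′ to 3′ on the gene's strand, and capitals mark the core on either strand, with overlapping matches counted as 1 site. They lie at chr12:54203825-54204124, minus strand for Egln3, chr17:46032328-46032627, minus strand for Vegfa, chr2:71872974-71873273, plus strand for Pdk1, chr6:82774405-82774704, minus strand for Hk2, chr7:110627407-110627706, plus strand for Adm and chr6:142507908-142508207, minus strand for Ldhb.
Egln3: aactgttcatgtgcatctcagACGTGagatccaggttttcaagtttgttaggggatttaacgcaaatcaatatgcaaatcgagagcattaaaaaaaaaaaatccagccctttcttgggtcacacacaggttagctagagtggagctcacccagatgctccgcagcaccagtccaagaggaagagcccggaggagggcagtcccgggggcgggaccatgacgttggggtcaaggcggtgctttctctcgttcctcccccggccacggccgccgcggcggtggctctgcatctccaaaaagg
Vegfa: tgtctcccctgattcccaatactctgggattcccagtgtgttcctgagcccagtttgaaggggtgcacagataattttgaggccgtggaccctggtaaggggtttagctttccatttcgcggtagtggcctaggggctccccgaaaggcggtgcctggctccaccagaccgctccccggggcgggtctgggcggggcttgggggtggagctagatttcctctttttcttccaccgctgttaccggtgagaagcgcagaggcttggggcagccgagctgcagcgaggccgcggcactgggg
Pdk1: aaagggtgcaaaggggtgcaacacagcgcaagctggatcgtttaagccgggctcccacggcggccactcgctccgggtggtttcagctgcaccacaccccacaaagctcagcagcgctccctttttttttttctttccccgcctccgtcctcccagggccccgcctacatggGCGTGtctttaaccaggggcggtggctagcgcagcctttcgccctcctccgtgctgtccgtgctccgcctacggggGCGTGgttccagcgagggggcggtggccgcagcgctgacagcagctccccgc
Hk2: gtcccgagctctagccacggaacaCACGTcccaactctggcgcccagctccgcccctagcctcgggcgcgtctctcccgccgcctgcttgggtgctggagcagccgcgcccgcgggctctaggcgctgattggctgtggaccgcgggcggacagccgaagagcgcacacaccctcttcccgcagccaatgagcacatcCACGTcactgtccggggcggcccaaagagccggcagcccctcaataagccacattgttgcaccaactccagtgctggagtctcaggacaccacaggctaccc
Adm: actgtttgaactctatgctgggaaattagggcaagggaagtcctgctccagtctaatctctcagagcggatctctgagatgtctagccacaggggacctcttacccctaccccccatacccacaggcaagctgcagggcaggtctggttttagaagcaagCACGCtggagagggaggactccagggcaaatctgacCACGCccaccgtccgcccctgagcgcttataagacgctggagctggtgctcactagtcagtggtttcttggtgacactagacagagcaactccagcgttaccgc
Ldhb: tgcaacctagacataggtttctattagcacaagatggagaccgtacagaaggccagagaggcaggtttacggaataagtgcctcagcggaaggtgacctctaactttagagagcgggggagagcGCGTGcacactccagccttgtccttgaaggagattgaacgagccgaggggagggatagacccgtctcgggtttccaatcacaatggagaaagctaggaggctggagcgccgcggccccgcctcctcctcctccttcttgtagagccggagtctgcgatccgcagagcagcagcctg
Pdk1, Hk2 and Adm hold 2 sites in these windows, Egln3 and Ldhb 1, and Vegfa none in the window of its first start, though the window of a later Vegfa start holds 2. Windows for Ndrg1 and Bnip3l were not used here. Of the 29 members with a window, 26 (89.7%) hold the core in at least 1 of their windows, as do 69.5% of the 8821 genes of the table with one. Counted by window, 75% of the members' 44 windows hold it, beside 63.2% of the 11287 windows of genes in the table. In the whole reference 43.8% of 32851 windows hold it. The core stands in windows of members that fell and of members that rose, and a match in these letters is a description, not a measured binding site.

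SAM and adenine were given at the same dose and for the same time, and the direct comparison asks whether 1 mM of each gave the same levels. They did not for 18 of the 31 members, 3 higher and 15 lower in SAM than in adenine, where 42.7% of all genes were called (20.8% higher, 22.0% lower). The size of the difference was at least 0.5 for 10 called members, beside 9.65% of all genes, and the median over the members was -0.15 against 0.00012 over all genes. On plain read totals 7 of 20 called members were higher (35.0%), against 16.7% on the authors' scaling, and 63.2% against 48.6% of all called genes. The median was -0.09 on plain read totals and -0.07 without SAM replicate 2.

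The largest of these differences were in Pdk1, which was lower in SAM (-1.34 ± 0.0733, adjusted p = 1.05e-09), Ndrg1, lower (-1.21 ± 0.0260, adjusted p = 1.83e-14), and Vegfa, lower (-0.98 ± 0.0291, adjusted p = 5.93e-13). For Pdk1 and Ndrg1 SAM thus held 0.395 and 0.432 times the adenine level. Pfkl (-0.84 ± 0.0421, adjusted p = 3.82e-10) followed, then Hk2 (-0.58 ± 0.0400, adjusted p = 1.49e-08), Egln3 (-0.50 ± 0.0790, adjusted p = 7.58e-05) and Aldoa (-0.50 ± 0.0431, adjusted p = 1.66e-07). Smaller differences, all lower in SAM, were called in Slc2a1 (-0.44), Adm (-0.45), Bnip3 (-0.43), Pgk1 (-0.42), Ldha (-0.27), Hif1a (-0.18) and Kdm3a (-0.15). Higher in SAM than in adenine were Ldhb (0.69 ± 0.0565, adjusted p = 1.01e-07), Pfkfb4 (0.67 ± 0.0963, adjusted p = 3.35e-05) and Pfkm (0.25 ± 0.0353, adjusted p = 2.42e-05).

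Where no call was made the intervals were mostly narrow. Gpi1 differed between SAM and adenine by 0.08 (95% interval 0.01 to 0.16), Eno2 by 0.01 (-0.11 to 0.13), Bnip3l by -0.03 (-0.12 to 0.05) and Pkm by 0.05 (-0.01 to 0.12), which bounds how far these levels may differ. Slc16a3 was called lower in SAM (-0.58 ± 0.172, adjusted p = 0.00973), but the libraries overlapped and the call was lost without Adenine replicate 1 or 2 or SAM replicate 2 or 3 (adjusted p = 0.0248 to 0.0565), under each of the other scalings (0.0102 to 0.0168) and in a model of these 2 groups (0.0203). The call of Kdm3a was lost on plain read totals (-0.09, adjusted p = 0.0122). DZ was used at 10 µM, and its values above stand beside those of adenine and SAM without a comparison, since the doses differ: Hk2 and Egln3 were called higher than CTL in DZ, at 0.35 and 0.41, and lower in adenine and SAM, and Slc16a1 was likewise called higher in DZ and lower in the other treatments.

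Further genes of the same routes were taken from lists. The share of all genes called was 45.9% in DZ, 61.6% in adenine and 69.3% in SAM, and of each list the genes named are given in all treatments as log2 differences, each called at an FDR under 0.01 unless said otherwise. Of 16 other glycolysis and glycogen genes in the table, 5 rose and none fell in DZ (31.2% called), 3 rose and 4 fell in adenine (43.8%), and 6 rose and 5 fell in SAM (68.8%), with medians of 0.15, -0.03 and 0.04. The shares in DZ and adenine were below those of all genes and that in SAM was close to it. The enolase gene Eno3 differed by 0.47 in DZ, -0.04 in adenine (not called) and 0.73 in SAM, and the glucose transporter gene Slc2a6 by 0.44 in DZ, 0.22 in adenine (not called) and 0.70 in SAM. Pygb, brain glycogen phosphorylase, differed by 0.15 in DZ (not called), 0.51 in adenine and 0.92 in SAM. Tigar, which lowers fructose 2,6-bisphosphate, rose in DZ and fell with both metabolites, with 0.31 in DZ, -0.53 in adenine and -0.62 in SAM.

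Another list of 16 genes held those for the entry of pyruvate into the mitochondrion and its use there, with the related enzymes Pck2, Me1 and Me2. In DZ 6 rose and 3 fell (56.2% called, beside 45.9% of all genes). In adenine 7 rose and 5 fell (75.0%, beside 61.6%), and in SAM 6 rose and 7 fell (81.2%, beside 69.3%). The medians were 0.02 in DZ, -0.04 in adenine and -0.14 in SAM. Pdk4, another pyruvate dehydrogenase kinase, differed by -0.06 in DZ (not called), 2.81 in adenine and 2.47 in SAM, opposite to the fall of Pdk1 in SAM. Pdk3 differed by -0.26 in DZ, 0.82 in adenine and 0.83 in SAM. Pck2, mitochondrial phosphoenolpyruvate carboxykinase, differed by 0.25 in DZ, 0.06 in adenine (not called) and -1.44 in SAM. The pyruvate dehydrogenase subunit gene Pdha1 fell in each treatment, with -0.40 in DZ, -0.42 in adenine and -0.49 in SAM, and the malic enzyme gene Me2 had 0.32 in DZ, 0.24 in adenine and 0.01 in SAM (not called).

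The pentose phosphate pathway branches off at glucose-6-phosphate and makes NADPH and ribose. The 12 genes listed with it include Prps1, Prps2, Prpsap1 and Prpsap2, which belong to the step after the pathway. In DZ 6 were higher and 4 lower (83.3% called, beside 45.9% of all genes). In adenine 1 was higher and 8 lower (75.0%, beside 61.6%), and in SAM 4 were higher and 5 lower (75.0%, beside 69.3%). The medians were 0.11 in DZ, -0.19 in adenine and -0.06 in SAM. Tkt, transketolase, differed by -0.90 in DZ, -0.62 in adenine and -0.01 in SAM (not called). Pgls, 6-phosphogluconolactonase, fell in each treatment, with -0.22 in DZ, -1.06 in adenine and -1.15 in SAM, as did Rpe with -0.16 in DZ, -0.69 in adenine and -0.57 in SAM and Prpsap2 with -0.35 in DZ, -0.40 in adenine and -0.45 in SAM. Rpia, ribose-5-phosphate isomerase, differed by 0.20 in DZ, -0.53 in adenine and -0.85 in SAM.

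Among 18 regulators of the HIF pathway, 6 rose and 2 fell in DZ (44.4% called, beside 45.9% of all genes), 4 rose and 6 fell in adenine (55.6%, beside 61.6%), and 6 rose and 8 fell in SAM (77.8%, beside 69.3%), with medians of 0.05, -0.02 and -0.05. Cited2, which competes with HIF-1 for the coactivator p300, rose in each treatment, with 0.78 in DZ, 0.64 in adenine and 0.56 in SAM. The chaperone gene Hsp90ab1 fell in each, with -0.57 in DZ, -0.67 in adenine and -0.68 in SAM, and so did Rack1, which promotes the loss of HIF-1 alpha without oxygen sensing, with -0.53 in DZ, -0.99 in adenine and -0.69 in SAM. Cul2, the scaffold of the ligase that carries the von Hippel-Lindau protein, differed by 0.19 in DZ, -0.83 in adenine and -0.88 in SAM.

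The 32 further HIF targets in the table did not move one way against CTL, and their shares called lay near those of all genes. In DZ 9 were higher and 6 lower (46.9% called, beside 45.9%), in adenine 15 higher and 6 lower (65.6%, beside 61.6%), and in SAM 10 higher and 11 lower (65.6%, beside 69.3%), with medians of -0.05, 0.13 and -0.02. Tfrc, the transferrin receptor, rose in each treatment, with 0.81 in DZ, 1.78 in adenine and 1.59 in SAM, and Car12, a carbonic anhydrase, differed by 0.46 in DZ (not called), 1.66 in adenine and 2.34 in SAM. Zfp395 fell in DZ and rose with both metabolites, with -0.75 in DZ, 0.49 in adenine and 0.52 in SAM. Ero1a, an oxidase of the endoplasmic reticulum, fell in each, with -0.13 in DZ, -1.06 in adenine and -2.31 in SAM. Between SAM and adenine 27 of the 32 were called, 7 higher and 20 lower in SAM, beside 42.7% of all genes, and their median was -0.20.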

How the data were processed

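Polyadenylated RNA of 12 dishes was sequenced. Trimmomatic, HISAT2 (GRCm39, GENCODE vM27), StringTie and edgeR were the authors' tools, and a gene had to reach 1 CPM in each sample. The deposited values are log2 CPM on the authors' normalized library size. How its scaling factors (0.962 to 1.05) were made is not given in the sources used here.

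With a prior count of 2 the log2 values were turned back to reads, and 100% of them came out within 0.01 of a whole read, with at least 46 reads per gene and library. Each gene was tested in limma 3.58.1 (R 4.3.3, lmFit and eBayes with a variance trend, no covariates). On simulated data the model recovered 77.5% to 86.7% of log2 changes of 0.5 and 95.5% to 99.0% of changes of 1. False calls were 0.549% of all calls in the DZ comparison, 1.68% in adenine (3 of 179) and 0% in SAM. Each simulated comparison changed 90 to 102 of 12591 genes by 0.5 and 98 to 110 by 1. These are far fewer than were called in the data, so the simulated shares are not error rates of the reported calls. Symbols come from GENCODE vM39, which matched 12575 of 12591 identifiers, promoters from RefSeq, and copies from blastn 2.17.0 (95% identity, 500 bases). Python 3.11.15 (pandas 2.3.3, numpy 2.4.6, matplotlib 3.10.9) made tables and plots. Samples were grouped by the treatment in the labels, and all 12 columns were used.

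The members, lists and tests were chosen with earlier results of these data known. Members called with a log2 difference of at least 0.5 in any treatment are given in every library, and of each list the 2 called genes with the largest difference per treatment are named. The symbol Pc was not found in the annotation, which names pyruvate carboxylase Pcx. The list was fixed, so this gene was left out of the pyruvate genes.

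The alternatives were median centring, quantile normalization, plain read totals, a minimum mean of 3 log2 CPM, log2(CPM + 1), no variance trend, robust empirical Bayes, voom on the reads, an FDR of 0.05, a required log2 difference of 0.5, a model of the 2 groups compared, a replicate block, another transcript length, leaving out each library, and, added after seeing the data, reads summed over copies.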

Additional observations from a re-analysis of the deposited data

How the results depend on the processing

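The number of members called stayed within 1.5 times the reported count under all alternatives other than a required log2 difference of 0.5, which left 4 in DZ, 8 in adenine, 13 in SAM and 10 in SAM against adenine. Of single members, the sign of a called difference turned only for Pkm in SAM under quantile normalization (0.055). Leaving out 1 library of the groups compared gave 16 to 21 called members in DZ, 20 to 23 in adenine, 23 to 24 in SAM and 17 to 19 in SAM against adenine. In DZ Slc16a3, Hk1, Tpi1, Eno1 and Pdk1 lost their call without CTL replicate 1, and other single libraries cost up to 4 of these. In adenine Tpi1 was lost without adenine replicate 1 or 2 or CTL replicate 1 or 2, and Pgam1 without adenine replicate 1 or 2 or CTL replicate 1 or 3. In SAM Eno2 was lost without SAM replicate 2 (adjusted p = 0.0105). Without the variance trend the DZ calls of Hk1, Tpi1 and Eno1 and the adenine calls of Tpi1 and Pgam1 were lost. Median centring cost the calls of Hk1 in DZ, Tpi1 and Pgam1 in adenine and Egln1 in SAM. Both settings also cost the call of Slc16a3 in SAM against adenine. The median over the members in adenine moved with the scaling, as given above, and was -0.01 on plain read totals. With a minimum mean of 3 log2 CPM, Slc16a3 and Pfkfb4 left the table.

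Replicate numbers gave no pairing of dishes: over 18 pairs, libraries sharing a number had deviations correlated at -0.142 to 0.181. With the replicate block 22 members were called in DZ (Pfkfb3 added), 22 in adenine, 24 in SAM and 17 in SAM against adenine (Slc16a3 lost). The medians could not change, since each block holds a library of every group. Each group has 3 dishes, which limits the precision. SAM replicate 3 stood further from its group than any other library did. Between libraries of a group, the chi-square per degree of freedom was 19.1 for SAM replicates 1 and 3 and 15.7 for 2 and 3. It was 4.76 for SAM replicates 1 and 2, and 5.06 to 7.07 in the other groups. Depth limits it most for Slc16a3, the member with the fewest reads, and the balance of rises and falls in SAM moved with the scaling.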
